A study of Mus musculus with 21 samples.

Results

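The 33 astrocyte genes described here are genes known as markers or working parts of astrocytes, the glial cells that take up transmitter, buffer potassium, line blood vessels and couple to one another through gap junctions. They were found by gene symbol in the deposited count table, where all 33 had 1 row each among 53803 gene rows. The table came from hypothalamus mRNA of 9 wild-type mice (WT) and 12 mice without the alpha and delta isoforms of Sh2b1 (SH2B1adKO), and the labels give no age, sex or strain for either group. The names of the 21 library columns occur in no sample label, so no column could be given a genotype or batch, and no comparison of genotypes was made. The columns were used as 21 libraries without groups, numbered 1 to 21 by their place in the table. Whether the libraries differ by genotype, batch or dissection was therefore not tested.

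Astrocytes clear glutamate through Slc1a2 and Slc1a3 and turn it into glutamine with Glul, and they clear GABA mainly through Slc6a11. Hypothalamic astrocytes are known for high Agt, the precursor of the angiotensin peptides, and for high Slc6a11, whereas Gfap, the filament protein used to stain astrocytes, is uneven between brain regions and rises in injury. In RNA from whole tissue, fewer astrocytes and less RNA per astrocyte cannot be told apart.

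The column totals ranged from 23536581 to 61437364 counts, with a median of 36291137. Levels are given as CPM, counts scaled to a common column total. All 33 genes passed the filter of a median CPM of at least 1, as did 14806 genes in all. The lowest count of any of the 33 in a library was 824, whose counting error alone is 3.48%, and the highest was 167873. Of the other cell types, markers of choroid plexus varied most, with a summed level of 43.8 to 1709 CPM and the highest sum in library 3. Summed markers of neurons ranged from 7936 to 8917 CPM, those of oligodendrocytes from 11380 to 14100 CPM, those of thalamus and striatum from 754 to 1274 CPM and those of fibroblasts from 101 to 228 CPM.

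Promoter sequence is shown for 3 pairs of astrocyte genes whose levels moved together across the libraries, as described below: Agt with Ntsr2, Gfap with Hepacam, and Aldh1l1 with Gpr37l1. Each run is the 250 bases before a RefSeq transcript start on GRCm38.p6, read 5′ to 3′ on the strand of the gene. Capitals mark matches to the motifs searched.
Agt: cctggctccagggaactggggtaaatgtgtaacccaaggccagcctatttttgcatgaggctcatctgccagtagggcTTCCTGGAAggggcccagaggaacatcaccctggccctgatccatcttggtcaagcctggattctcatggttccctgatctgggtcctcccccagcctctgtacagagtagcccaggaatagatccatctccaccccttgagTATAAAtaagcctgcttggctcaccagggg
Ntsr2: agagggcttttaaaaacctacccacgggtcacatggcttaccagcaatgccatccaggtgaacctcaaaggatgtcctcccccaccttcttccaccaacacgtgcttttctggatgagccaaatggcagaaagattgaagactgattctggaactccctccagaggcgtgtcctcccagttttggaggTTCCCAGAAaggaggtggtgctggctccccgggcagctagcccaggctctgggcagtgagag
Gfap: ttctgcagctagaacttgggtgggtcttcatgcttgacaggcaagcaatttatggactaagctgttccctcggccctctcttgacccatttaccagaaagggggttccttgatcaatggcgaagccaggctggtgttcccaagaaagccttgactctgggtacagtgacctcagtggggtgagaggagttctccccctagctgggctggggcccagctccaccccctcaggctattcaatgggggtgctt
Hepacam: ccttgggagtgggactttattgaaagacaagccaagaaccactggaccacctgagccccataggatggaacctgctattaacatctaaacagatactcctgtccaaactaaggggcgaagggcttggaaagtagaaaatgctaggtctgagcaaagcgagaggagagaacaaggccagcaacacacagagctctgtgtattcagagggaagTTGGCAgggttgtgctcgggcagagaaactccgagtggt
Aldh1l1: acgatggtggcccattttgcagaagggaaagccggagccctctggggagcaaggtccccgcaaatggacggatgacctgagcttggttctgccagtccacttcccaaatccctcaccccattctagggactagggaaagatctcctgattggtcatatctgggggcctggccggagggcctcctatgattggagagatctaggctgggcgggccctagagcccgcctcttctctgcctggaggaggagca
Gpr37l1: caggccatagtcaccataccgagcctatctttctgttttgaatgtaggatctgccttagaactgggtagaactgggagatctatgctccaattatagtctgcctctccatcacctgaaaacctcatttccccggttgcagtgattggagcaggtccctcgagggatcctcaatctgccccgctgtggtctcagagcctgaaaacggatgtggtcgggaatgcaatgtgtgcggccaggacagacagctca
The Agt window lies at chr8:124569707-124569956 on the minus strand, the Ntsr2 window at chr12:16653220-16653469 on the plus strand and the Gfap window at chr11:102897201-102897450 on the minus strand. The Hepacam window lies at chr9:37367356-37367605 and the Aldh1l1 window at chr6:90550543-90550792, both on the plus strand, and the Gpr37l1 window at chr1:135167682-135167931 on the minus strand. For Ntsr2, Gfap, Hepacam and Aldh1l1 the RefSeq start lies inside the longer GENCODE gene.

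Motifs were searched on both strands in the 250 bases before each RefSeq start. Windows were matched by symbol for 28 of the 33 genes, some with several starts, and a gene was counted once if any of its windows held the motif, both for the 28 and for all 27025 genes with a window. The TATA box, TATAAA, was found in 5 of the 28 genes and in 14.3% of all genes. A half-site of NFI factors, TTGGCA, was found in 5 of the 28 and in 14.1% of all genes. A core of SOX factors, AACAAT, was found in 0 of the 28 and in 10.9% of all genes. A STAT site, TTCNNNGAA, was found in 6 of the 28 and in 8.13% of all genes. Over single windows the shares were 12.4%, 12.3%, 9.42% and 7.02% of 32851. The motifs do not contain one another. Agt and Ntsr2 both held TTCNNNGAA, and Agt also held TATAAA shortly before its start. Hepacam held TTGGCA. The printed windows of Gfap, Aldh1l1 and Gpr37l1 held no match.

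The 33 genes together took 1.71 to 1.83% of all counts, with a median of 1.75%. Their summed level was 17100 CPM in library 12 and 18300 CPM in library 8, a ratio of 1.07. Single genes varied more, with a median ratio of highest to lowest library of 1.26, against 1.34 over all tested genes. The ratio was below that of the median tested gene for 25 of the 33 and above it for 8. Tested genes had median levels from 1 CPM, whereas the lowest of the 33, Sox9, had 34.9 CPM. Counting error widens the ratio at low counts, and genes of like level were not compared. The summed level thus moved less than each of the 33, of which Hepacam had the lowest ratio, 1.13.

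Per kilobase of exon, the median levels ran from 8.44 CPM for Sox9 to 1051 CPM for Apoe. By this measure secreted proteins led the order. Apoe, a lipid carrier, was followed by Sparcl1, a secreted protein that acts at synapses, at 903 CPM per kilobase and by the protease inhibitor Cst3 at 681. Per kilobase Apoe was above Sparcl1 in 20 of 21 libraries, although their ranges overlapped. Glul at 453, Aldoc at 352, Ndrg2 at 349 and Clu at 251 came next. Aldoc and Ndrg2 could not be ordered, since per kilobase Aldoc was the higher in 13 of 21 libraries. The order rests on the joined exon lengths, which can exceed those of the transcripts present. By CPM alone Sparcl1 had a higher median than Apoe, 2651 against 2247 CPM. Cst3, at 862 CPM, was then below Glul, at 1506 CPM. Apoe, Cst3, Clu and several others of the 33 are also made by other cells, and 11 of the 33 were set apart as broadly expressed.

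**Figure D1:**
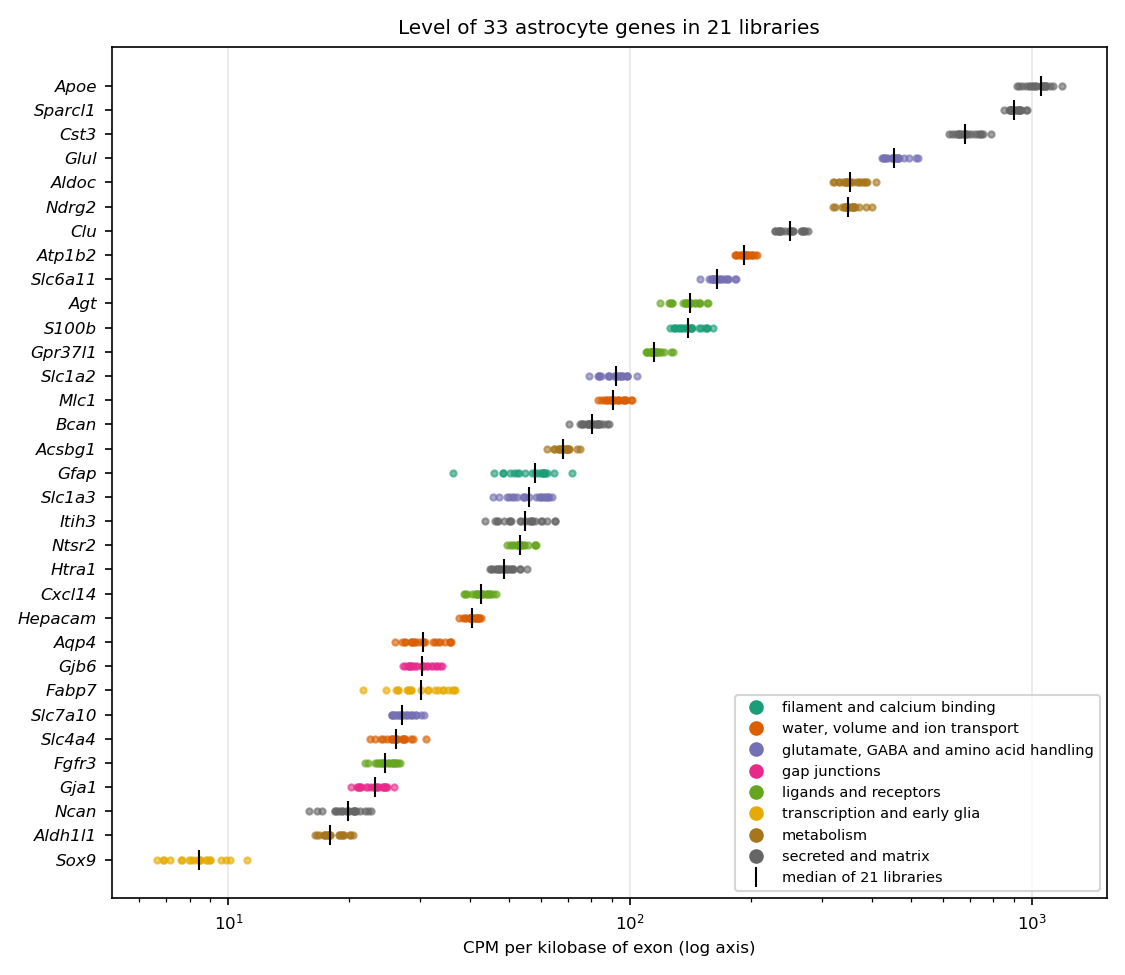
Level of each of the 33 astrocyte genes in 21 libraries, in CPM per kilobase of exon on a log axis. Each point is a library, the bar is the median of the 21 libraries and the colour is the role of the gene. Apoe lies highest with a median of 1051 and Sox9 lowest with 8.44, and Gfap has the widest spread.

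Of the filament and calcium-binding genes, Gfap had the widest range of all 33. Its level was 152 CPM in the lowest library, 244 CPM at the median and 302 CPM in the highest, a ratio of 1.99 that exceeded that of 87.7% of tested genes. Library 1 was lowest, and the next lowest, library 8, had 194 CPM. Library 4 was highest, and the next highest, library 5, had 272 CPM. Without library 1 the ratio was 1.56. S100b, a calcium-binding protein, ranged from 186 through a median of 206 to 239 CPM, and did not follow Gfap (r = -0.23 over 21 libraries).

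Of the genes for water, volume and ion transport, 3 of 5 had narrow ranges and 2, Aqp4 and Slc4a4, did not. Hepacam, an adhesion protein that holds Mlc1 in place at astrocyte contacts, had the narrowest range of the 33, from 126 to 142 CPM with a median of 135 CPM. Atp1b2, a sodium pump subunit, ranged from 743 to 843 CPM. Mlc1, a membrane protein at the endfeet, was at 233 to 284 CPM, and per kilobase its level was 2.15 to 2.44 times that of Hepacam in every library. The water channel Aqp4 ranged from 162 to 223 CPM and the bicarbonate transporter Slc4a4 from 243 to 336 CPM, with ratios of 1.38 and 1.39, above that of the median tested gene.

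The genes of transmitter handling differed widely in level, from Glul at 453 to Slc7a10 at 27.0 CPM per kilobase. Slc6a11, the GABA transporter GAT3, was at 753 CPM in library 1, 830 CPM at the median and 928 CPM in library 10. Library 8, at 919 CPM, was next highest, and the other 19 were at or below 886 CPM. The glutamate transporter Slc1a2 had 1039 to 1367 CPM and Slc1a3 had 388 to 545 CPM. Per kilobase Slc1a2 was 1.36 to 2.03 times Slc1a3, with a median of 1.64. Glul ranged from 1411 to 1725 CPM. The amino acid exchanger Slc7a10 ranged from 53.9 to 64.9 CPM. The strand setting of the counting is not given in the sources used here, and 17.9% of the exon bases of Slc7a10 are shared with the opposite-strand gene Lrp3, at a median of 105 CPM, so its level is uncertain.

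Both astrocyte connexins were present. Gja1, connexin 43, had 207 to 265 CPM and Gjb6, connexin 30, had 72.7 to 90.7 CPM. By CPM Gja1 was thus the higher in every library. Per kilobase it was 0.616 to 0.887 times Gjb6, which rests on the lengths used, 10257 bases for Gja1 and 2674 for Gjb6. These lengths join all annotated exons of a gene, so no order of the 2 genes was read from them. The 2 did not rise and fall together (r = -0.21).

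Among ligands and receptors, Agt had 224 CPM in library 9, 266 CPM at the median and 295 CPM in library 1. Libraries 1 and 5 were highest, at 295 and 293 CPM, and libraries 3, 7, 9, 14 and 17 were lowest, at or below 240.4 CPM. Ntsr2, a neurotensin receptor of astrocytes, had 154 CPM in library 7, 166 CPM at the median and 182 CPM in library 1. Per kilobase Agt was 2.33 to 2.76 times Ntsr2. Gpr37l1, an orphan receptor of astrocytes, had 249.0 CPM in library 17, 260 CPM at the median and 290 CPM in library 8. Library 2 was close to library 8, at 286 CPM, and the other 19 were at or below 275.2 CPM. The growth factor receptor Fgfr3 ranged from 157 to 191 CPM and the chemokine Cxcl14 from 70.5 to 84.9 CPM. Fgfr3 shares 13.9% of its exon bases with an opposite-strand gene that had a median of 2.08 CPM.

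Other genes of the renin-angiotensin system were mostly low beside Agt. Per kilobase Agt had a median of 141 CPM, against 109 for Atp6ap2, a renin receptor and proton pump subunit, 61.6 for the protease Ctsd and 7.42 for the converting enzyme Ace. The receptors Agtr1a and Agtr2 were at 0.376 and 0.552. The renin gene Ren1 was at a median of 0.0541 CPM before division by length, with a lowest value of 0. Ace, Agtr1a, Agtr2 and Ren1 were chosen after their values were seen.

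The early glial genes were low and variable. Sox9, a transcription factor of glia, had 27.4 CPM in library 21, 34.9 CPM at the median and 46.0 CPM in library 4. Fabp7, a fatty acid-binding protein of radial glia and astrocytes, had 27.0 CPM in library 19, 37.7 CPM at the median and 45.8 CPM in library 11. Their ratios of highest to lowest library were 1.68 and 1.69, above 78.2% and 79.0% of tested genes.

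The metabolic genes were Aldh1l1, a folate enzyme used as a general astrocyte marker, Aldoc, a glycolytic enzyme, Acsbg1, which activates fatty acids, and Ndrg2. Aldh1l1 had 74.0 CPM in library 12, 80.7 CPM at the median and 92.0 CPM in library 6. Its values fell in 2 sets without overlap, 85.1 to 92.0 CPM in libraries 1 to 9 and 74.0 to 80.8 CPM in libraries 10 to 21. What the order of the columns stands for is not given in the sources used here, and no group was read from it. Aldoc ranged from 1045 to 1334 CPM, Ndrg2 from 1085 to 1361 CPM and Acsbg1 from 224 to 270 CPM.

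**Figure D2:**
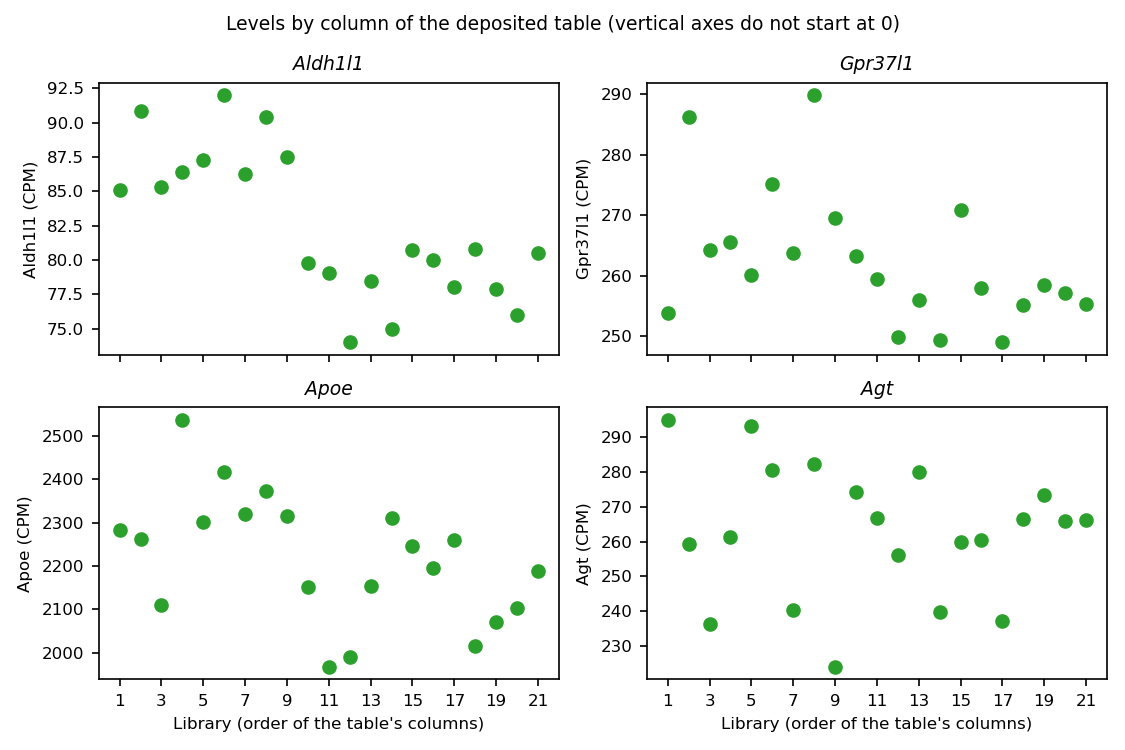
Levels of Aldh1l1, Gpr37l1, Apoe and Agt in CPM against the place of the library in the table, 1 point per library, on axes that do not start at 0. Aldh1l1 lies at 85.1 or above in libraries 1 to 9 and at 80.8 or below in libraries 10 to 21, whereas the other 3 genes overlap between these sides.

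Of the secreted and matrix proteins, Sparcl1 was among the steadiest, at 2508 to 2862 CPM with a ratio of 1.14. Apoe ranged from 1968 to 2537 CPM, Cst3 from 788 to 999.5 CPM and Clu, a chaperone, from 789 to 952 CPM. Itih3, a protein that binds hyaluronan, ranged from 158 to 237 CPM and Ncan, a matrix proteoglycan, from 114 to 163 CPM. Bcan, a related proteoglycan, ranged from 286 to 361 CPM and per kilobase was 3.71 to 5.28 times Ncan. The protease Htra1 ranged from 129 to 159 CPM.

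The 33 genes did not form a single block across the libraries. Of their 528 pairs, 60.2% had a positive Pearson r of log2(CPM + 1), against 52.4% of all pairs of tested genes, and the median r was 0.11 against 0.020. An r of at least 0.5 was found in 78 pairs, or 14.8%, against 6.51% of all pairs. An r of -0.5 or below was found in 26 pairs, or 4.92%, against 5.39%. These are descriptions over the same 21 libraries, which share their totals, and carry no test. The tested genes were not matched to the 33 by level. Pairs of 1 role had a median r of 0.099 and pairs of different roles 0.12. By role, the median r was 0.60 for the 6 pairs of metabolism, 0.23 for the 10 pairs of water, volume and ion transport, 0.21 for the 10 pairs of ligands and receptors, 0.0041 for the 28 pairs of secreted and matrix proteins and -0.026 for the 10 pairs of transmitter handling.

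The pair with the highest r was Gpr37l1 with Aldh1l1 (r = 0.79, rho = 0.77), followed by Gpr37l1 with Ndrg2 (r = 0.78, rho = 0.63), Gjb6 with Fgfr3 (r = 0.77, rho = 0.75), Sox9 with Clu (r = 0.76, rho = 0.74) and Mlc1 with Apoe (r = 0.75, rho = 0.76). Gpr37l1 also had the highest median r with the other 32 genes, at 0.32. At the other end, Slc1a2 had the lowest median r, -0.24. The most negative pairs were Aldoc with Ncan (r = -0.77, rho = -0.74), Ntsr2 with Ncan (r = -0.73, rho = -0.72), Slc1a3 with Aldoc (r = -0.71, rho = -0.65) and Gjb6 with Sox9 (r = -0.68, rho = -0.69). Slc1a3 with Ncan was positive (r = 0.72). Aqp4 with Gja1, both found at the endfeet, had an r of 0.66.

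**Figure D3:**
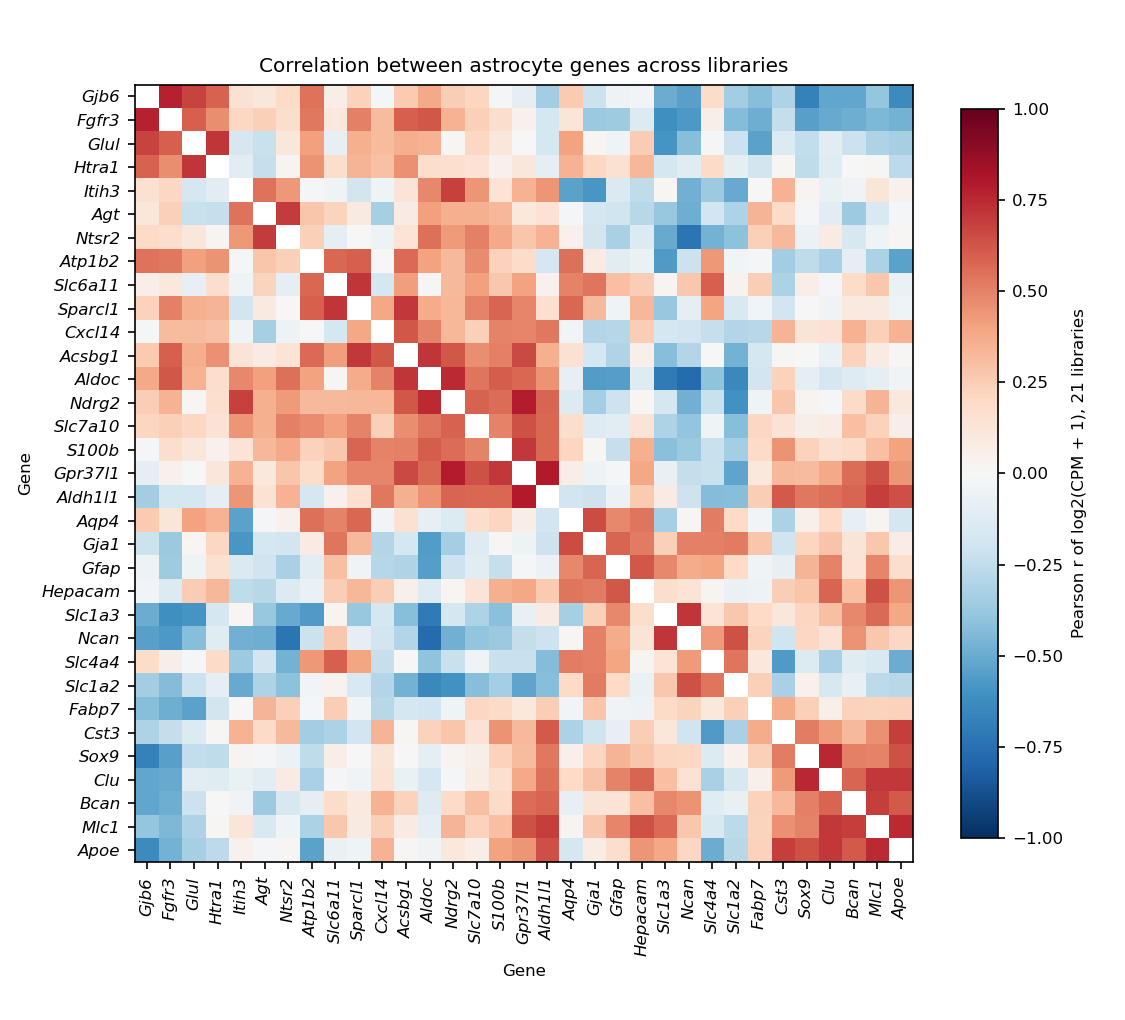
Pearson r of log2(CPM + 1) across 21 libraries for each pair of the 33 astrocyte genes, with genes ordered by average-linkage clustering and the diagonal left blank. Red is positive and blue negative. Gpr37l1 with Aldh1l1 reaches 0.79 and Aldoc with Ncan -0.77, and the genes form several patches rather than 1 block.

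Levels of Aldh1l1, Gfap, Agt and Slc6a11 were each correlated with all other 14805 tested genes, with a two-sided permutation test of 100000 resamples and Benjamini-Hochberg adjustment over all 59220 tests. A gene was called at an adjusted p under 0.05. The counts for the other 32 astrocyte genes are given with the share of all tested genes called in the same direction. With Aldh1l1, 4 of 32 were called positive, where 8.16% of all tested genes were, and 0 negative, where 8.25% were. With Gfap, 1 was called positive against 2.64% of genes, and 0 negative against 0.527%. With Agt, 1 was called positive against 1.09% of genes, and 0 negative against 2.5%. With Slc6a11, 1 was called positive against 0.338% of genes, and 0 negative against 0.615%. At an unadjusted permutation p under 0.05 there were 13, 7, 3 and 5 of the 32 in either direction. Of all 14805 tested genes there were 5672, 2805, 2196 and 1428. The median r of the 32 was 0.26 with Aldh1l1, -0.035 with Gfap, 0.035 with Agt and 0.20 with Slc6a11, against 0.070, 0.054, -0.0070 and -0.053 over all tested genes.

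**Figure D4:**
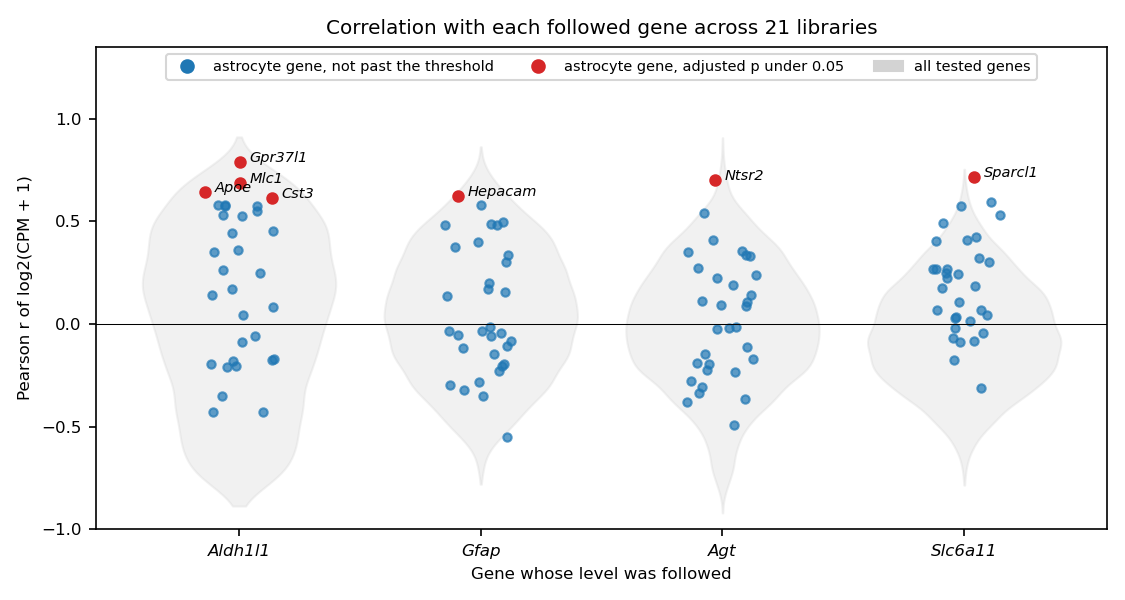
Pearson r of log2(CPM + 1) of the other 32 astrocyte genes (points) and of all tested genes (grey shapes) with Aldh1l1, Gfap, Agt and Slc6a11 across 21 libraries. Red points passed the adjusted permutation p of 0.05: 4 genes with Aldh1l1 and 1 each with Gfap, Agt and Slc6a11.

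Agt was called with Ntsr2 (r = 0.70, rho = 0.62, adjusted permutation p = 0.0158), and r was 0.73 without the 2 libraries farthest from the median of Agt. With levels centred within libraries 1 to 9 and 10 to 21 r was also 0.73, but the call was lost (adjusted permutation p = 0.129). Libraries 1 and 5 were high in both genes, and libraries 7 and 9 were low in both. The non-member genes most like Agt were Adcyap1, the neuropeptide PACAP (r = 0.91, rho = 0.89), Otp, a hypothalamic transcription factor (r = 0.88, rho = 0.83), Nxph4, a secreted ligand of neurexins (r = 0.86, rho = 0.80), Hdc, the enzyme that makes histamine (r = 0.86, rho = 0.88), and Nr5a1, a transcription factor of the ventromedial hypothalamus (r = 0.86, rho = 0.86). Each of these 5 had an adjusted permutation p of 0.00361. Without the 2 farthest libraries their r ranged from 0.77 for Nr5a1 to 0.88 for Adcyap1. Of 10 general neuronal markers 1, Stmn2, was called with Agt, and their median r was 0.16.

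Genes of the striatum went the other way. Of 10 markers of thalamus and striatum, 5 were called negative with Agt and 0 positive, where 2.5% and 1.09% of all tested genes were, and their median r was -0.64. Without the 2 farthest libraries 2 of the 10 were called, both negative. Among them were the dopamine receptor Drd1 (r = -0.75), Ppp1r1b (r = -0.72), the adenosine receptor Adora2a (r = -0.72) and Rgs9 (r = -0.69), with adjusted permutation p-values from 0.00833 to 0.0161 and rho from -0.69 to -0.59. These 4 were chosen after their values were seen. Adora2a was at 34.9 to 42.9 CPM in libraries 7, 9, 14 and 17 and at no more than 22.1 CPM in the other 17. Without those 4 libraries r with Agt was 0.54 for Ntsr2, 0.83 for Adcyap1 and -0.40 for Adora2a. In those 17 libraries 89 genes were called with Agt in place of 531, 49 of them among the 531, and Ntsr2 was not called. The part that dissection played in the level of Agt was not tested. Of the 49 other astrocyte genes tested, Paqr6 was called positive with Agt and Lhx2 and Gldc negative. With rho none of these was called, and without the 2 farthest libraries only Paqr6 of them was. Without libraries 7, 9, 14 and 17 their r was 0.55 for Paqr6, -0.40 for Lhx2 and -0.46 for Gldc.

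**Figure D5:**
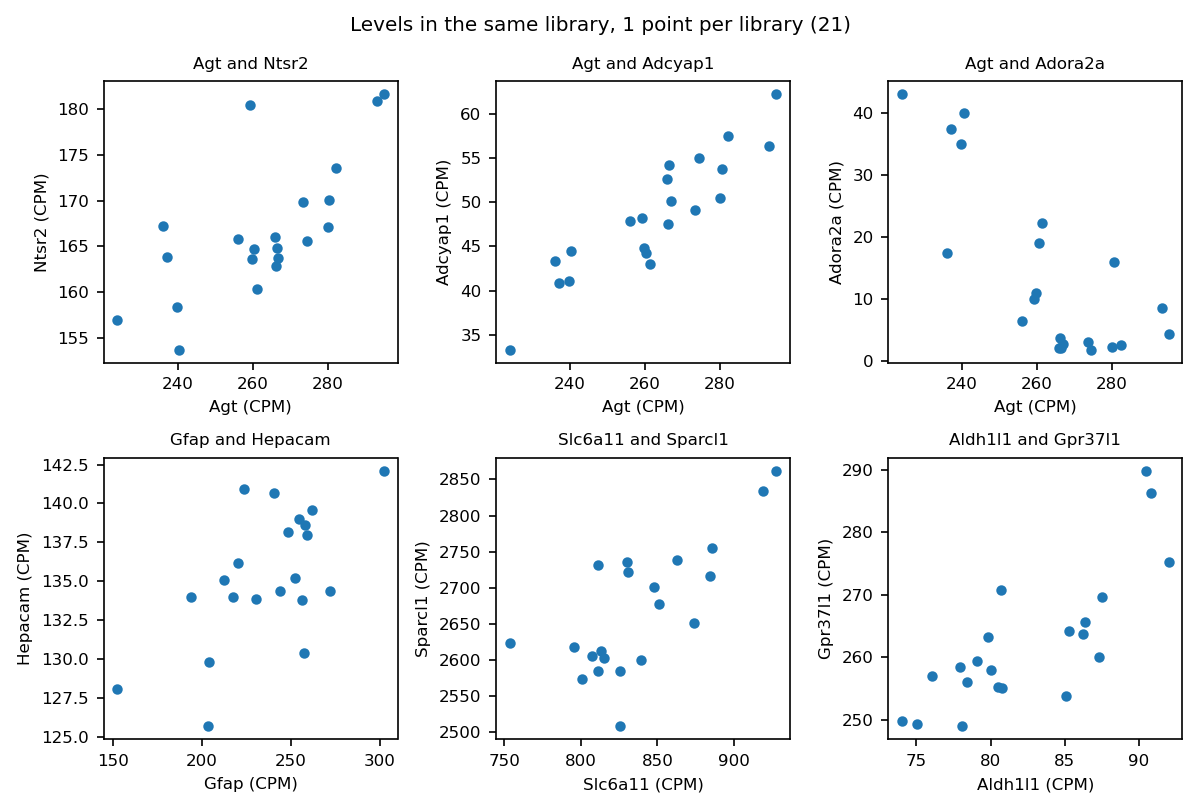
Levels in CPM of 6 pairs of genes, 1 point per library (21), on axes that do not start at 0. Adcyap1 rises with Agt (r = 0.91) more closely than Ntsr2 does (r = 0.70), and Adora2a is highest in libraries with low Agt (r = -0.72).

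Gfap was called with Hepacam alone of the 32 (r = 0.62, rho = 0.51, adjusted permutation p = 0.0452). Without the 2 farthest libraries r was 0.44, and without library 1 it was 0.53 and no longer called. With centred levels r was 0.67 (adjusted permutation p = 0.075). Under TMM scaling r was 0.52 and Hepacam was not called, whereas Aldoc was, and edgeR called 0 of the 32. Aldoc went against Gfap, with r = -0.55 and rho = -0.57 before TMM scaling. The non-member genes most like Gfap were Prss23 (r = 0.86), Slc12a7, a potassium-chloride cotransporter (r = 0.84), Pawr (r = 0.83), Dnajc3, a chaperone of the endoplasmic reticulum (r = 0.83), and Tbc1d14 (r = 0.83). Their adjusted permutation p-values ranged from 0.00361 to 0.0072 and their rho from 0.65 to 0.79. Without the 2 farthest libraries their r was 0.65 to 0.78.

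Genes known from reactive astrocytes were called with Gfap in 4 of 17 tested, all positive: S1pr3 (r = 0.69), Cd109 (r = 0.69), C4b (r = 0.62) and Emp1 (r = 0.62), where 2.64% of all tested genes were. Without the 2 farthest libraries, which are 1 and 4, 0 of the 17 were called, with r of 0.47 to 0.63 for these 4, and with rho 2 were called, C4b and Cd109. The median r of the 17 was 0.47, and Serpina3n, Vim and H2-D1, the most abundant of the list, were not called. Markers of other cells were also called with Gfap over all libraries. Of 10 fibroblast markers 4 were called positive (Igf2, Lum, Col1a2 and Col1a1) with a median r of 0.58, and of 9 choroid plexus markers 3 (Kl, F5 and Folr1) with a median r of 0.58. The neuronal markers Snap25 and Tubb3, 2 of 10, were called negative, where 0.527% of all tested genes were. Without libraries 1 and 4, 0 genes of these 3 lists were called. In libraries 10 to 21 the r with Gfap was 0.018 for Igf2, 0.092 for Col1a2, 0.22 for Col1a1 and 0.32 for Lum, against 0.89 to 0.94 in libraries 1 to 9. The genes called in these lists were chosen after their values were seen. Of the 49 other astrocyte genes tested, 2 were called positive with Gfap, Slco1c1 and Ednrb, and 0 without libraries 1 and 4. The summed level of neuronal markers had an r of -0.68 with Gfap and that of fibroblast markers 0.58. The part of these other cells in the level of Gfap was not tested.

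Slc6a11 was called with Sparcl1 alone of the 32 (r = 0.72, rho = 0.64, adjusted permutation p = 0.0131). Libraries 8 and 10 were highest in both, and without them r was 0.51 and the pair was not called. With centred levels r was 0.72 (adjusted permutation p = 0.057). Under TMM scaling Slc4a4 and Atp1b2 were called as well, and with edgeR Slc4a4 was. Among the non-member genes most like Slc6a11 were Slc14a1, a urea transporter of astrocytes (r = 0.75), Cdh20, a cadherin (r = 0.74), Ghsr, the ghrelin receptor (r = 0.73), and Sall2 (r = 0.72). Their adjusted permutation p-values ranged from 0.00757 to 0.0122, their rho from 0.71 to 0.76, and their r without the 2 farthest libraries from 0.65 to 0.78. Of the 49 other astrocyte genes tested, Slc14a1 and the potassium channel Kcnj16 were called positive, where 0.338% of all tested genes were. Without the 2 farthest libraries neither was called (r = 0.65 and 0.41, adjusted permutation p = 0.082 and 0.358). With rho Kcnj16 was not called.

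Aldh1l1 was called with Gpr37l1 (r = 0.79, rho = 0.77, adjusted permutation p = 0.00361), Mlc1 (r = 0.69, rho = 0.71, p = 0.0233), Apoe (r = 0.64, rho = 0.66, p = 0.0343) and Cst3 (r = 0.61, rho = 0.56, p = 0.0498). Since its values fell in 2 sets, r was also taken within each. Gpr37l1 had an r of 0.84 in libraries 1 to 9 and 0.61 in libraries 10 to 21. Mlc1 had 0.66 and 0.29, Apoe 0.31 and 0.085, and Cst3 -0.074 and -0.65. Without the 2 farthest libraries r was 0.72 for Gpr37l1, 0.59 for Mlc1, 0.61 for Apoe and 0.55 for Cst3. With levels centred within each set, Gpr37l1 was still called (r = 0.71, adjusted permutation p = 0.0389), the other 3 were not, and the number of genes called with Aldh1l1 was 9 in place of 2430, of which 5 were among the 2430. The border between the sets was placed by the values of Aldh1l1 itself, so centring takes out the difference between them by construction. Calls lost under centring are therefore no check of those relations. Each set also holds a narrower range of Aldh1l1 than all libraries together. A lower r within a set is therefore no check of them either. Under TMM scaling Gpr37l1 alone of the 32 was called.

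For the non-member genes most like Aldh1l1, r was also taken within the 2 sets, each with its narrower range of Aldh1l1. Echs1, an enzyme of fatty acid oxidation, had an r of 0.91 over all libraries, 0.87 in libraries 1 to 9 and 0.66 in libraries 10 to 21. Gabarap, an autophagy protein, had 0.90, 0.73 and 0.19. The ribosomal protein genes Rps14 and Rps15 had 0.89 and 0.87 over all libraries and -0.0050 and 0.065 in libraries 10 to 21. Upf3a, a factor of RNA decay, had 0.87, 0.52 and 0.43. All 5 had an adjusted permutation p of 0.00361 over the 21 libraries, rho from 0.77 to 0.93 and r without the 2 farthest libraries from 0.83 to 0.88. Of the 49 other astrocyte genes tested, 8 were called positive with Aldh1l1 over all libraries (Tst, Gstm5, Slc25a18, Gstm1, Slc27a1, Nkain4, Cbs and Mt3) and 1 negative (Dio2), against 8.16% and 8.25% of all tested genes. With levels centred within the 2 sets 0 of the 49 were called, and r was -0.16 for Slc27a1, -0.028 for Mt3, 0.035 for Gstm1 and at most 0.69, for Slc25a18. This loss of calls is no check either, since the border came from Aldh1l1. None of these 9 is among the most abundant of that list, Ttyh1, Kcnj10 and Acsl6.

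The summed level of the 33 genes had an r of 0.59 with the summed level of the other astrocyte genes (rho = 0.51) and 0.44 with oligodendrocyte markers (rho = 0.38). Without the 2 farthest libraries these r were 0.43 and 0.61, so which of them was the higher changed with those libraries. Over all libraries the summed level of the 33 had an r of -0.41 with markers of thalamus and striatum. It had 0.13 with neuronal markers and -0.25 with the column total. All are descriptions with no test. The astrocyte channel gene Kcnj10, which is not among the 33, had a median of 524 CPM, and Ttyh1 had 591 CPM. None of the 33 genes, Gfap, Aqp4 and Aldh1l1 included, was at 0 in any library.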

How the data were processed

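Poly(A)-enriched hypothalamus RNA was made into directional libraries and read as paired ends, per the labels' protocols. The submitters' processing notes name DESeq2 1.22.2, STAR 2.5.3a, FastQC 0.11.7 and StringTie 1.3.6 with GRCm38 and give no roles. The authors deposited 1 table of raw counts per gene. The names of 21 of its columns match no sample label, so these were used as libraries without groups and the planned comparison of genotypes was not run. With no groups there are no replicates of a condition, and p-values measure association across libraries only.

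Counts were divided by the column total (CPM) and, where genes are compared, by the joined length of all exons that GENCODE gives the gene. Such a length can exceed that of the transcripts present. Genes with a median CPM of at least 1 were tested on log2(CPM + 1). The permutation test, whose smallest possible p is 1e-05, was run on simulated counts. There, genes varied independently apart from a set made to follow Agt, so that check does not cover variation shared by many genes. The alternatives were Spearman's rho, TMM scaling and a quasi-likelihood slope from edgeR 4.0.16, other filters, a pseudocount of 0.1 and libraries left out. The settings without library 1 and without the libraries highest in Adora2a and the centring by column place were chosen after seeing the data, as was the border between columns 9 and 10. For centred levels, values were permuted within each side. The named genes are the 33, the 5 other genes with the highest r to each of the 4 followed genes, and the 3 most abundant of each other list. Some genes that this rule names are not reported here. Genes and lists were chosen with earlier results of these data known. Promoter windows are from RefSeq on GRCm38.p6. Python 3.11.15, numpy 2.4.6, pandas 2.3.3 and R 4.3.3 were used.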

Additional observations from a re-analysis of the deposited data

How the results depend on the processing

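Counts of genes called with Aldh1l1, Gfap, Agt and Slc6a11 were 2430, 469, 531 and 141. With Spearman's rho they were 1586, 222, 253 and 62, and without the 2 farthest libraries 518, 22, 188 and 31. TMM scaling gave 286 with Slc6a11. With levels centred within libraries 1 to 9 and 10 to 21 they were 9, 131, 294 and 30. For Aldh1l1, whose values set the border, a fall was built into this setting. Without library 1 there were 217 with Gfap, and without the 4 libraries highest in Adora2a 89 with Agt. The filter of a median CPM of at least 5 and the pseudocount of 0.1 left all 4 counts within 1.5 times of these.

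The astrocyte genes called were 4 with Aldh1l1 and 1 with each of the other 3. With Aldh1l1 there was 1 under TMM scaling, 1 without the 2 farthest libraries and 1 with centring. With Gfap there were 0 with rho, 0 under the filter of at least 1 count in every library, 0 with edgeR, 0 without the 2 farthest libraries and 0 without library 1. With Agt there were 0 with rho, 0 with centring and 0 without the 4 libraries. With Slc6a11 there were 0 with rho, 0 without the 2 farthest libraries, 3 under TMM scaling and 2 with edgeR. Centring kept the number at 1 with Gfap and with Slc6a11, but the genes were Clu and Gpr37l1, not Hepacam and Sparcl1. The gene called with Gfap under TMM scaling was Aldoc, whose r with Gfap was negative (-0.55 before TMM scaling). The r of Hepacam, Sparcl1 and Ntsr2 did not fall under centring (0.67, 0.72 and 0.73), and only the adjusted p missed the threshold. Gpr37l1 was called with Aldh1l1 under every setting run for Aldh1l1. Cst3 turned to an r of -0.34 with Aldh1l1 under centring. What lay behind these changes was not tested. The settings that leave libraries out also have fewer libraries, and the part of that was not tested either.

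The median r of the pairs stayed between 0.097 and 0.13 under rho, TMM scaling, centring and without the 11 broadly expressed genes, and between 0.099 and 0.14 with each library left out in turn. The ratio of the highest to the lowest summed level, 1.07, was 1.09 under TMM scaling, 1.08 without the broadly expressed genes and 1.06 to 1.07 with each library left out. TMM moved the median gene by at most 0.05 on the log2 scale. No paired analysis was possible because the columns could not be tied to mice.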

Other observations

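Aldh1l1 by library, in the order of the table's columns, was 85.1, 90.8, 85.3, 86.4, 87.3, 92.0, 86.2, 90.5 and 87.5 CPM in libraries 1 to 9. It was 79.8, 79.1, 74.0, 78.4, 75.0, 80.7, 80.0, 78.1, 80.8, 77.9, 76.0 and 80.5 CPM in libraries 10 to 21. The gap between the sets, from 80.8 to 85.1 CPM, was 24.0% of the whole range. The border was placed after the values were seen, and no test was made of it.

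Adora2a, a gene of striatal neurons, was at 40.0, 42.9, 34.9 and 37.4 CPM in libraries 7, 9, 14 and 17, between 15.8 and 22.1 CPM in libraries 3, 4, 6 and 16, and at no more than 10.9 CPM in the other 13. Agt in the first 4 of these was 240.4, 223.9, 239.8 and 237.1 CPM.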
